A study of Mus musculus with 9 samples.

Results

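The RNA of 10 genes with which plasma cells make antibody was followed in the jejunum of 9 mice. Not all of them are confined to plasma cells, and Ighm for example is also transcribed by resting B cells. The genes were chosen by name: the heavy chain constants Igha, Ighm, Ighg1, Ighg2b, Ighg2c and Ighg3, the light chain constants Igkc and Iglc1, the J chain gene Jchain, and Mzb1. All 10 were among the 31685 genes of the expression table, and all 10 passed the filter for testing, which asked for 3 or more mice at an FPKM of 1 or above and kept 13056 genes. Ighg3 reached that level in 4 of the 9 mice, Mzb1 in 5 and the other 8 genes in all 9. FPKM, the fragments on a gene scaled to its length and to the size of the library, is a level per length, so that genes of different length can be set side by side.

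The study asked how an infusion of human antibody alters the intestine after irradiation. Jejunum was taken on day 3 from 3 groups of 3 C57BL/6J wild-type male mice aged 6 to 8 weeks. Control mice received no treatment. TAI mice received total abdominal irradiation, a single dose of 12 Gy X-rays to the abdomen, followed by phosphate-buffered saline. TAI/IVIg mice received the same 12 Gy and an intravenous dose of 500 mg/kg of IVIg, an intravenous immunoglobulin preparation made of human IgG protein. The assay read mouse RNA, so none of the values below measures the infused protein. Each library is 1 mouse. The sample labels call the tissue epithelial while the series text speaks of jejunal tissue, and the libraries held RNA from more than epithelium: all 15 epithelial marker genes and all 15 stroma and muscle marker genes on the lists were above 0 in each of the 9 libraries. The field of irradiation took in the whole abdomen, and RNA was sampled at a single time.

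A plasma cell is a B cell that has stopped dividing and turned its protein synthesis over to one antibody. An antibody has heavy chains, whose constant part sets the class (alpha for IgA, mu for IgM, gamma for IgG), and light chains of the kappa or lambda type. In the gut lamina propria most plasma cells make IgA. J chain joins IgA into dimers and IgM into pentamers, and the epithelial receptor encoded by Pigr carries these polymers into the lumen. Mzb1 is a chaperone of the endoplasmic reticulum that assists antibody assembly. Resting B cells of the Peyer's patches, the lymphoid follicles of the small intestine, carry IgM and IgD on their surface and transcribe Ighm and Ighd.

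The heavy chain constants lie in a row on chromosome 12 (build GRCm38, minus strand), in the order in which class switching can reach them. Ighm (ENSMUSG00000076617) is at chr12:113418558-113422730, followed by Ighg3 (ENSMUSG00000076615) at chr12:113356224-113361232, Ighg1 (ENSMUSG00000076614) at chr12:113325240-113330523, Ighg2b (ENSMUSG00000076613) at chr12:113302965-113307933 and Ighg2c (ENSMUSG00000076612) at chr12:113285325-113288932. Igha (ENSMUSG00000095079), at chr12:113254830-113260236, is the last of the row. Igkc (ENSMUSG00000076609) lies on the plus strand at chr6:70726435-70726966, Iglc1 (ENSMUSG00000105906) on the minus strand at chr16:19061618-19062071, and Jchain (ENSMUSG00000067149) on the minus strand at chr5:88519809-88527891. Mzb1 (ENSMUSG00000024353) lies on the minus strand at chr18:35647267-35649367. Gm30211 overlaps Igkc and SPATA24 overlaps Mzb1, each on the same strand, and 2010309G21Rik overlaps Iglc1 on the opposite strand. Strand cannot separate reads where Igkc or Mzb1 is overlapped, and for Iglc1 the counting is not stated to use strand. How reads in these overlaps were assigned was not tested.

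The ends of the secreted heavy chains show what J chain has to do with these genes. The next lines give the last 60 coding bases of the secreted form of each heavy chain constant, stop codon included, 5′ to 3′ on the coding strand. The capitals mark the codon for the cysteine next to the last residue, to which J chain is bonded in IgA and IgM.

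Igha (chr12:113258768-113258827, minus strand): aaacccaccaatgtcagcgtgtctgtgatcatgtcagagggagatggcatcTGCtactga
Ighm (chr12:113420867-113420926, minus strand): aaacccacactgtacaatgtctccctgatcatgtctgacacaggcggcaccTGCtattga
Ighg1 (chr12:113328976-113329035, minus strand): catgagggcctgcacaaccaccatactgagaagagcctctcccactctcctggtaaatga
Ighg2b (chr12:113306389-113306448, minus strand): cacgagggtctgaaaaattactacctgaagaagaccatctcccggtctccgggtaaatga
Ighg2c (chr12:113287389-113287448, minus strand): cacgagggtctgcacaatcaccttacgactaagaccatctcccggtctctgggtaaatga
Ighg3 (chr12:113359665-113359724, minus strand): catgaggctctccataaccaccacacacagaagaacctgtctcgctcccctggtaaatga

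Igha and Ighm both end with that cysteine, and the 4 IgG genes have no cysteine codon at this place. Jchain RNA is therefore set below against Igha as a ratio, and no ratio to Ighm was taken.

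The IgG genes resemble each other in sequence, and how reads that fit several of them were counted was not tested. Over the aligned coding bases Ighg2b and Ighg2c were 85.9% identical, and the other pairs of IgG constants were 75.8% to 77.7% identical. The next lines show the longest run shared by Ighg2b and Ighg2c, 78 bases in capitals, with 20 bases on each side.

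Ighg2b (chr12:113306849-113306966, minus strand): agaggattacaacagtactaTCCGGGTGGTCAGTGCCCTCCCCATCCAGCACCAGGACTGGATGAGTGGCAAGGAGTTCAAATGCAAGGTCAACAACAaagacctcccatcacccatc
Ighg2c (chr12:113287849-113287966, minus strand): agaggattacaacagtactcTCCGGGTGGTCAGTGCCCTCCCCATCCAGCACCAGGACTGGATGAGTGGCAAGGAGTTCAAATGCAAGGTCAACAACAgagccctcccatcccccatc

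No window of 100 bases was identical between any of the 4 IgG coding sequences. Reads that fall inside shorter shared runs may be split between them, so the separate IgG levels, and those of Ighg2b and Ighg2c above all, are uncertain.

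The 9 libraries held 16278117 to 18238706 reads assigned to genes, recovered from the steps of the FPKM values. Between 0.166% and 0.324% of those reads fell on the 10 genes. That share was 0.255%, 0.266% and 0.324% in control mice, 0.208%, 0.258% and 0.169% in TAI mice and 0.166%, 0.214% and 0.246% in TAI/IVIg mice. TAI/IVIg mice lay below all control mice, and TAI mouse 2 reached into the control range. Igha and Igkc gave most of these reads. In control mouse 3, which had the highest share, Ighm gave another 10607 reads. The share was not tested. With 3 mice against 3, an exact permutation test cannot go below a 2-sided p of 0.1. In whole tissue, fewer cells of a type and less RNA per cell cannot be told apart.

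Igkc, the kappa light chain constant, had the highest level of the 10 genes, with a mean of 1337 FPKM over the 9 mice. Its FPKM was 1461, 1509 and 1727 in control mice, 1216, 1500 and 960 in TAI mice and 995, 1226 and 1438 in TAI/IVIg mice. The highest value was 1.8 times the lowest, and the variation over all 9 mice (a coefficient of variation of 19.1%) was above that of only 18.8% of the genes tested. All TAI/IVIg mice lay below all control mice, whereas TAI mouse 2 reached into the control range. Of the 10 genes only Igkc had groups without overlap, and only between TAI/IVIg and control mice. Of all genes tested, 55.8% did not overlap between those groups. None of the 10 was without overlap between TAI and control mice (53.0% of all genes) or between TAI/IVIg and TAI mice (19.1% of all genes).

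Igha, the IgA heavy chain, followed with a mean of 394 FPKM. Its FPKM was 427, 531 and 390 in control mice, 411, 481 and 221 in TAI mice and 314, 308 and 458 in TAI/IVIg mice. Both irradiated groups overlapped the controls, and the lowest value of the study belonged to TAI mouse 3. That mouse also had the lowest Igkc and the lowest Jchain of the 9.

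Jchain came next, with a mean of 136 FPKM. Its FPKM was 179, 154 and 144 in control mice, 116, 153 and 87 in TAI mice and 105, 114 and 173 in TAI/IVIg mice. TAI mouse 2 and TAI/IVIg mouse 3 lay within the control range, and the remaining irradiated mice lay below it. Igkc, Igha and Jchain thus kept within 1.8-fold, 2.4-fold and 2.05-fold over 9 mice, irradiated or not.

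The ratio of Jchain to Igha FPKM was as narrow. It was 0.418, 0.29 and 0.369 in control mice, 0.283, 0.318 and 0.393 in TAI mice and 0.333, 0.371 and 0.378 in TAI/IVIg mice. The group means were 0.359 ± 0.0646, 0.331 ± 0.0562 and 0.361 ± 0.0242 (SD, n = 3 each), which differ by less than the spread between mice. The ratio of Igkc to Igha, 2.84 to 4.43 over all mice, likewise had group means of 3.56 ± 0.805, 3.47 ± 0.755 and 3.43 ± 0.471 (SD, n = 3 each) in the same order of groups. Within groups it was uneven. Control mice 1 and 3 had 3.42 and 4.43, TAI mouse 3 had 4.34 and TAI/IVIg mouse 2 had 3.97. All other mice had 3.17 or less. The mice with the higher ratio are those with high Ighm, described below, and the cause of this split was not tested.

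**Figure D1:**
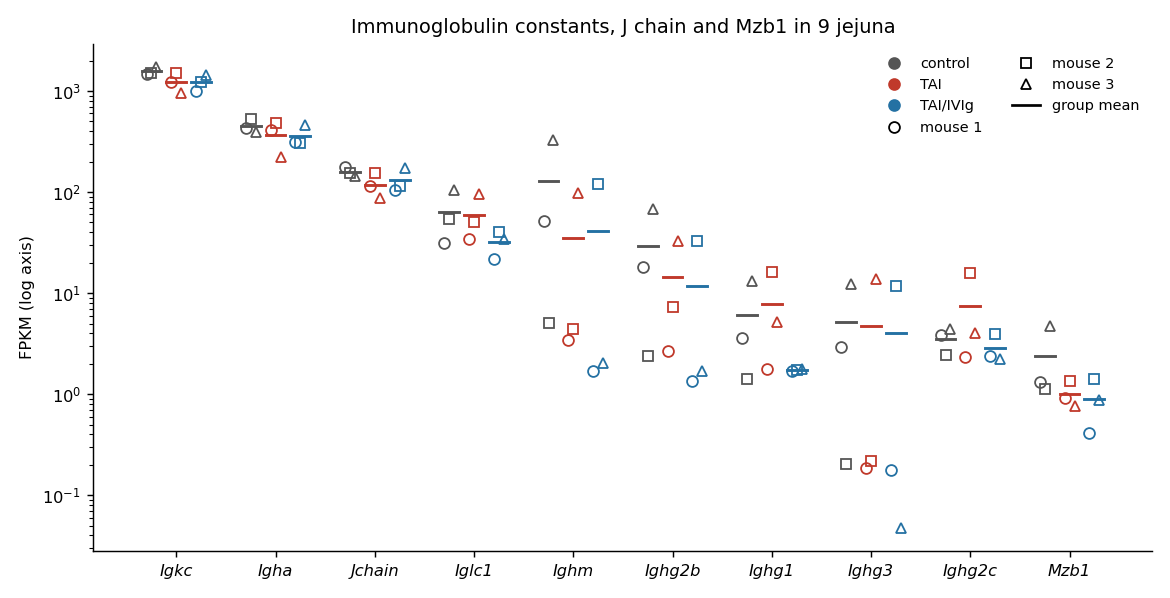
FPKM of each of the 10 genes on a log axis, with a point for each mouse (shape gives the mouse number, colour the group) and a bar at each group mean. Igkc, Igha and Jchain stay within a narrow band in all 9 mice, whereas Ighm spreads from 1.68 to 325 FPKM and Ighg3 from 0.0475 to 13.9 FPKM over the 9 mice, with a wide spread in each group.

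Ighm, the IgM heavy chain, behaved differently from Igha. Its FPKM was 52.1, 5.07 and 325 in control mice, 3.47, 4.43 and 97.2 in TAI mice and 1.68, 121 and 2.05 in TAI/IVIg mice. Control mice 1 and 3, TAI mouse 3 and TAI/IVIg mouse 2 had 52.1 FPKM or more, and the other 5 mice had 5.07 or less. Each group held mice of both kinds, and the highest value was 193 times the lowest. These levels rest on 57 to 10607 reads, and the variation over the 9 mice was above that of 99.4% of the genes tested.

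Ighd, the IgD constant that mature B cells transcribe together with Ighm, is not one of the 10 genes but followed Ighm. Its FPKM was 22.9, 0.477 and 188 in control mice, 0.0922, 0.162 and 34.1 in TAI mice and 0.0293, 35.9 and 0.0628 in TAI/IVIg mice. The ratio of Ighd to Ighm FPKM was 0.297 to 0.58 in the 4 mice with high Ighm and 0.094 in control mouse 2, where Ighd had 16 reads. The remaining 4 mice had 1 to 5 Ighd reads, too few for a level or a ratio.

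Ighg2b, one of the IgG heavy chains, had its highest levels in the same 4 mice. Its FPKM was 18.3, 2.41 and 68 in control mice, 2.68, 7.31 and 33 in TAI mice and 1.35, 32.5 and 1.69 in TAI/IVIg mice. Ighg3, an IgG class of T cell-independent responses, was at 2.91, 0.203 and 12.4 FPKM in control mice, 0.186, 0.22 and 13.9 in TAI mice and 0.177, 11.8 and 0.0475 in TAI/IVIg mice. Ighg3 in the 5 low mice amounted to between 2 and 9 reads a library, too few for a level, against 127 to 635 reads in the other 4.

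Of the B cell and follicle markers, Ms4a1, Cxcl13 and Cd79a were high in the same libraries. Ms4a1, a B cell surface protein known as CD20, had an FPKM of 4.51, 0.137 and 29.9 in control mice, 0.0566, 0.139 and 5.5 in TAI mice and 0.00899, 5.37 and 0.0675 in TAI/IVIg mice. Cxcl13, the chemokine that draws B cells into follicles, was at 26.1, 11.3 and 102 FPKM in control mice, 7.51, 7.37 and 119 in TAI mice and 1.31, 126 and 0.622 in TAI/IVIg mice. Cd79a, a signalling chain of the B cell receptor, was at 18.5, 1.48 and 142 FPKM in control mice, 1.2, 1.31 and 29.9 in TAI mice and 0.801, 31.4 and 0.982 in TAI/IVIg mice. These markers are given as a description, since the 4 mice were singled out by Ighm and Ms4a1 after the values were seen.

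The summed FPKM of the 19 B cell markers was 267, 260 and 1295 in control mice and 176, 352 and 443 in TAI mice. In TAI/IVIg mice it was 314, 437 and 609. Cd74 was the largest term in 9 of 9 libraries. The sum did not follow Ighm throughout, since TAI/IVIg mouse 3, with low Ighm, had the highest sum of its group. Between 0 and 3 of the 19 were at 0 in a library. Fcmr, the IgM receptor of B cells, was at 0 in both TAI mice and both TAI/IVIg mice with low Ighm. The part of B cells or lymphoid follicles in the values of Ighm, Ighg2b and Ighg3 was not tested.

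**Figure D2:**
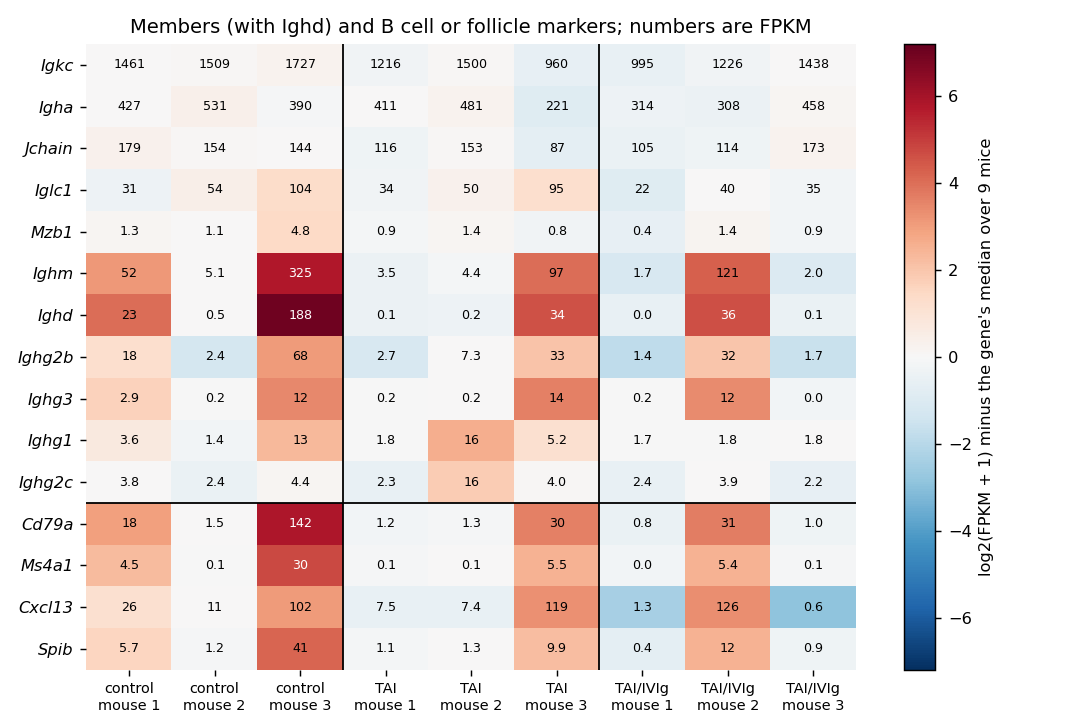
Level of the 10 genes and Ighd (above the line) and of 4 B cell or follicle markers (below it) in each of the 9 mice. Colour is log2(FPKM + 1) minus the median of the gene over the 9 mice, and the numbers are FPKM. Ighm, Ighd, Ighg2b and Ighg3 are high in control mice 1 and 3, TAI mouse 3 and TAI/IVIg mouse 2, as are Cd79a, Ms4a1, Cxcl13 and Spib, and Igkc, Igha and Jchain are not.

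Ighg1 and Ighg2c, the other IgG constants, did not share that pattern throughout. Ighg1 FPKM was 3.62, 1.4 and 13.2 in control mice, 1.78, 16.3 and 5.18 in TAI mice and 1.69, 1.75 and 1.79 in TAI/IVIg mice. Ighg2c FPKM was 3.82, 2.43 and 4.4 in control mice, 2.33, 15.9 and 4.05 in TAI mice and 2.39, 3.91 and 2.25 in TAI/IVIg mice. Both had their highest value in TAI mouse 2, a mouse with Ms4a1 at 0.139 FPKM and Ighm at 4.43 FPKM. There Ighg1 had 687 reads and Ighg2c 343, and the ratio of Ighg1 to Ighg2b FPKM was 2.23, the highest of the 9 mice, whereas it was 0.0538 to 0.198 in the 4 mice with high Ighm.

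Iglc1, a lambda light chain constant, had an FPKM of 31.4, 54.2 and 104 in control mice, 34.1, 50 and 95.4 in TAI mice and 21.8, 40.3 and 34.7 in TAI/IVIg mice. Control mouse 3 and TAI mouse 3, both high in Ighm, stood above the rest. Control mouse 1 and TAI/IVIg mouse 2, also high in Ighm, did not. Lambda constants (Iglc1, Iglc2 and Iglc3) made up 4.88%, 5.11% and 11.7% of the light chain constant FPKM in control mice, 3.34%, 4.38% and 11.1% in TAI mice and 3.11%, 5.51% and 4.73% in TAI/IVIg mice. Kappa was the main light chain in all 9 mice.

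Within lambda the share of Iglc1 was 41.9%, 66.7% and 45.5% in control mice, 81.1%, 72.9% and 79.4% in TAI mice and 68.2%, 56.4% and 48.5% in TAI/IVIg mice. The TAI mice (mean 77.8% ± 4.33, SD, n = 3) lay above all control mice (51.4% ± 13.4) and all TAI/IVIg mice (57.7% ± 9.91). This share was picked after its values were seen, it was not tested, and 3 mice against 3 allow no exact p under 0.1. Iglc2 and Iglc3 are 96.5% identical in coding sequence, so their reads may be split, but Iglc1 shares 74.7% and 75.3% of bases with them.

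Mzb1, the assembly chaperone, was near the detection limit at 1.33, 1.12 and 4.75 FPKM in control mice, 0.913, 1.36 and 0.767 in TAI mice and 0.412, 1.4 and 0.883 in TAI/IVIg mice. These levels stand for 9 to 100 reads. Control mouse 3, the mouse with the most Ms4a1, was 11.5 times TAI/IVIg mouse 1, and no group of irradiated mice lay apart from the controls.

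Set against each other per length, the heavy chains showed the class makeup of each jejunum. Igha made up 80.5%, 97.8% and 38.9% of the heavy chain constant FPKM in control mice, 97.5%, 91.6% and 54.1% in TAI mice and 97.7%, 59.9% and 98.3% in TAI/IVIg mice. IgA was thus nearly the whole of the heavy chain RNA in 5 mice and 80.5% or less in the 4 mice with high Ighm and Ms4a1. The means, 72.4% ± 30.3, 81.1% ± 23.5 and 85.3% ± 22 (SD, n = 3 each) in the same order of groups, differed by less than the spread between mice. The IgG constants together held 1.19% to 9.79% in control, 1.65% to 13.7% in TAI and 1.24% to 9.69% in TAI/IVIg mice.

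**Figure D3:**
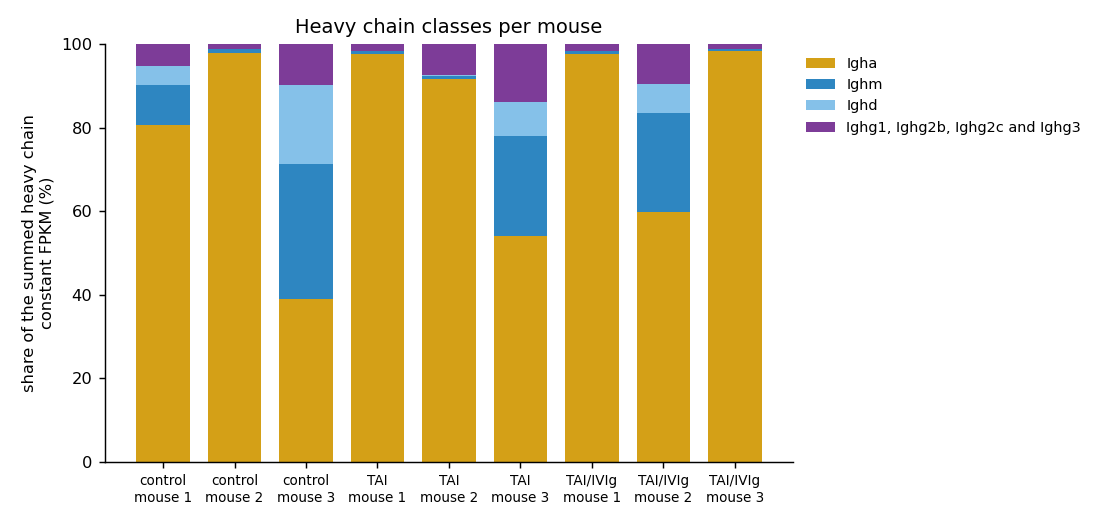
Share of each class in the summed FPKM of the heavy chain constants, a bar for each of the 9 mice. Igha takes 38.9% to 98.3% of a bar, and the mice with large Ighm and Ighd shares are spread over all 3 groups.

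Variable segments, the parts that give an antibody its specificity, gave summed FPKM of 1977, 2812 and 2719 in control mice, 2060, 2757 and 1272 in TAI mice and 975, 1795 and 1213 in TAI/IVIg mice. All TAI/IVIg mice lay below all control mice here as for Igkc, and the TAI mice overlapped both. Of all genes tested, 55.8% did not overlap between TAI/IVIg and control mice, and the sum itself was not tested.

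The comparison of TAI with control mice asks whether the RNA of the 10 genes was lower 3 days after irradiation. None of the 10 genes was called in limma's test on log2(FPKM + 1) at an adjusted p under 0.05, over a background of 34.9% of all genes tested, and 0 of 10 had an unadjusted p under 0.05, where 46.2% of all genes did. Igha was at a fold of 0.791 (log2 -0.34, SE 0.30, adjusted p = 0.399), with a 95% interval of the fold from 0.496 to 1.26. Igkc was at a fold of 0.772 (0.547 to 1.09, adjusted p = 0.213) and Jchain at 0.733 (0.498 to 1.08, adjusted p = 0.186). The point estimates lay below 1 and each interval included 1.

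The intervals of the less abundant genes were wider. Ighm was at a fold of 0.283, with an interval from 0.0143 to 5.62 (adjusted p = 0.478). Ighg2b was at 0.612 (0.0744 to 5.03), Ighg3 at 0.698 (0.0885 to 5.51), Ighg1 at 1.24 (0.397 to 3.84) and Ighg2c at 1.47 (0.656 to 3.3), with adjusted p between 0.421 and 0.777. Iglc1 was at 0.972 (0.46 to 2.05) and Mzb1 at 0.656 (0.367 to 1.17). The median log2 fold change of the 10 genes was -0.411, beside -0.235 for all genes tested.

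The comparison of TAI/IVIg with TAI mice asks what the infusion added to irradiation. Of all genes tested 0% were called, and none of the 10 was, in the same limma test. At an unadjusted p under 0.05 there were 1680 of the 13056 genes (12.9%) and 0 of the 10. Igkc was at a fold of 1 (0.709 to 1.41), Igha at 1 (0.629 to 1.6) and Jchain at 1.1 (0.748 to 1.62), with adjusted p of 1, 0.996 and 0.811. For these abundant genes the intervals were the narrowest of the 10. Ighg1 was at 0.412 (0.132 to 1.28), Iglc1 at 0.58 (0.274 to 1.22) and Ighg2c at 0.575 (0.257 to 1.29), and both Ighg1 and Ighg2c were highest in TAI mouse 2. Without that mouse the log2 difference went from -1.28 to -0.59 for Ighg1, which was also higher in TAI mouse 3 (5.18 FPKM) than in any TAI/IVIg mouse, and from -0.80 to -0.12 for Ighg2c.

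TAI/IVIg against control mice shares its samples with the comparisons above. None of the 10 genes was called, over a background of 46.4%, and 0 had an unadjusted p under 0.05, where 54.6% of all genes did. Igha was at a fold of 0.795 (0.498 to 1.27, adjusted p = 0.376), Igkc at 0.772 (0.547 to 1.09, adjusted p = 0.185) and Jchain at 0.807 (0.548 to 1.19, adjusted p = 0.321). Ighm was at 0.212 (0.0107 to 4.21), Iglc1 at 0.564 (0.267 to 1.19) and Mzb1 at 0.609 (0.341 to 1.09), the last with the smallest adjusted p of the 10, 0.138. The sign of these differences depended on the scaling: with the library medians set equal, a shift that follows the median of all genes (-0.393 in this comparison), the log2 differences were 0.16 for Igha, 0.12 for Igkc and 0.18 for Jchain. In TAI against control, Igha, Igkc and Jchain stayed below 0 under each of the alternatives tried, Igha by as little as -0.003 without TAI mouse 3.

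**Figure D4:**
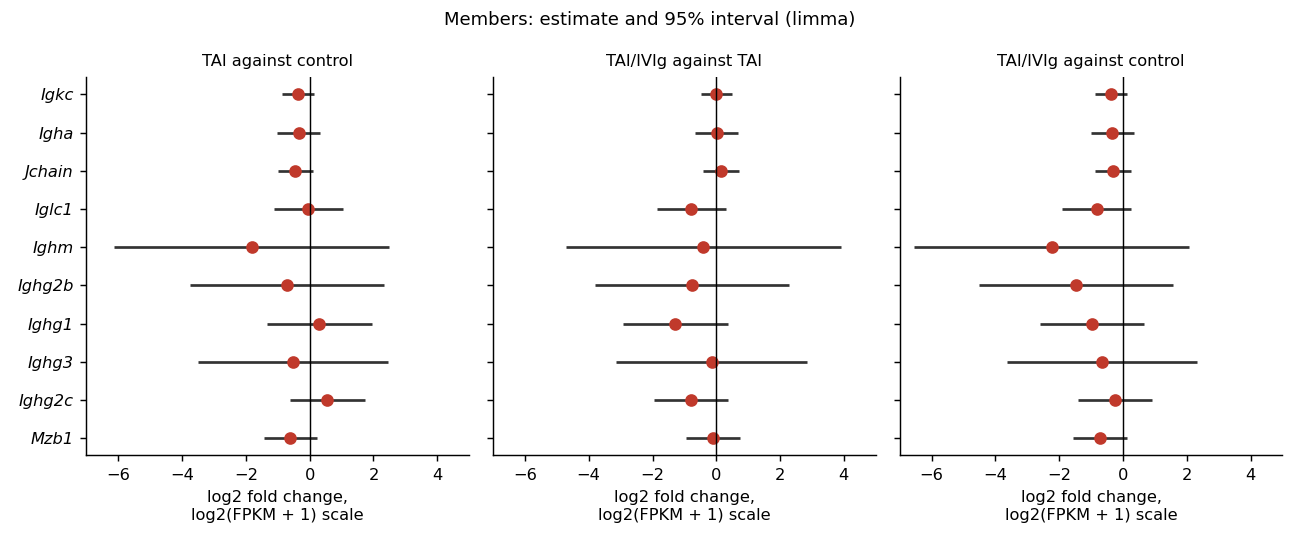
Log2 fold change of each of the 10 genes in the 3 comparisons (points) with the 95% interval from limma (lines). The intervals of Igkc, Igha and Jchain are short and include 0 in each comparison, and those of Ighm, Ighg2b and Ighg3 are several log2 units wide.

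The machinery with which plasma cells make antibody is shared with other secretory cells, and there the picture was different. Of the 30 tested genes of the endoplasmic reticulum and secretory apparatus, 27 were lower and 0 higher in TAI than in control mice, with a median log2 fold change of -1.15, over a background of 26.1% lower and 8.81% higher. Creld2, a stress-induced chaperone-like protein of the endoplasmic reticulum, was at 126, 170 and 101 FPKM in control and 20.3, 24.1 and 20.5 in TAI mice, a fold of 0.173 (log2 -2.53, SE 0.20, adjusted p = 0.000227). Pdia6, a protein disulfide isomerase, was at a fold of 0.213 (adjusted p = 0.000297), and Hsp90b1, the chaperone GRP94, at 0.267 (adjusted p = 0.000315). The 3 genes that did not pass were Herpud1, Dnajb9 and Edem1. In TAI/IVIg mice the count was again 27 lower and 0 higher than control, over a background of 37.4% lower and 9.06% higher, with a median of -1.27. Jejunal epithelium expresses these genes as well, and which cells the lower levels came from was not tested.

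Of 14 tested regulators and surface proteins of plasma cells, 2 were higher in TAI than in control mice, over the background of 8.81%, and 0 were lower, over 26.1%. Prdm1, the transcription factor Blimp-1 that fixes the plasma cell state and is made in other cell types too, was at 5.44, 3.98 and 4.07 FPKM in control and 17.4, 13.1 and 15.6 in TAI mice, a fold of 2.98 (adjusted p = 0.00993). Ell2, an elongation factor that favours the secreted form of heavy chain RNA, was at a fold of 1.86 (adjusted p = 0.00315). Both were also higher in TAI/IVIg than in control mice, with folds of 2.28 and 2.01, where 2 of the 14, Sdc1 (0.566) and Slamf7 (0.542), were lower, over a background of 37.4% lower. Xbp1, the driver of the secretory programme, was at 76.8, 77.1 and 69.2 FPKM in control, 80.4, 92.2 and 69.5 in TAI and 63.2, 76.1 and 86 in TAI/IVIg mice. Tnfrsf17, the plasma cell survival receptor BCMA, was at 0.135 to 1.04 FPKM and was not tested.

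Among the 15 tested signals of plasma cell survival and homing, 2 rose and 3 fell in TAI mice relative to control mice, shares near the background of 8.81% higher and 26.1% lower. Tnfsf13b and Tnfsf13, the survival factors BAFF and APRIL, were at folds of 1.75 (adjusted p = 0.00713) and 1.62 (adjusted p = 0.0338). Ccl25 and Ccl28, epithelial chemokines that draw IgA plasma cells into the gut, were at 0.362 (adjusted p = 0.00202) and 0.371 (adjusted p = 0.00581), and Aldh1a1, which makes retinoic acid, at 0.57 (adjusted p = 0.0463). Ccl25 was at 89.5, 108 and 75.3 FPKM in control, 27.7, 32.8 and 35.6 in TAI and 29.2, 48.9 and 45.8 in TAI/IVIg mice, without overlap between control and either irradiated group. The calls of Tnfsf13 and Aldh1a1 were lost in 4 and 7 of the 9 fits that left out a mouse. With the replicate number as a block Tnfsf13 also lost its call (adjusted p = 0.0537 in limma's test).

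Of 9 tested genes of IgA transport and antibody receptors, 2 rose and 0 fell in TAI mice relative to control mice, beside the same 8.81% higher and 26.1% lower of all genes. Fcgrt, the receptor FcRn that protects and carries IgG, was at 26.2, 25.8 and 25.3 FPKM in control, 34.7, 38.5 and 36.3 in TAI and 35.8, 50 and 55.4 in TAI/IVIg mice. Its fold was 1.4 in TAI (adjusted p = 0.0435) and 1.77 in TAI/IVIg mice (adjusted p = 0.00383) against control. Fcgr3, a low-affinity IgG receptor of myeloid cells, was at a fold of 1.62 in TAI (adjusted p = 0.0452). The TAI calls of both were lost in 7 of the 9 fits that left out a mouse. Pigr, which carries polymeric IgA and IgM across the epithelium, was at 96.6, 159 and 110 FPKM in control, 171, 317 and 98.1 in TAI and 141, 376 and 468 in TAI/IVIg mice, and was not called in TAI (fold 1.46, adjusted p = 0.425).

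B cell markers were lower in median (log2 -1.25) in TAI than in control mice, and 0 of 18 passed the test. The counts of the other lists are to be read against 8.81% higher and 26.1% lower of all genes in this comparison. Of 12 T cell markers 0 were called, of 17 myeloid markers 2 were higher and 2 lower, of 8 germinal centre and Peyer's patch genes 1 was higher (Bcl6), of 15 epithelial markers 6 were higher and 2 lower, and of 15 stroma and muscle markers 0 were higher and 1 lower. In TAI/IVIg mice 5 of those 15 were lower than in control (37.4% of all genes were), and none was called against TAI, although 13 had an unadjusted p under 0.05 (12.9% of all genes) and their median log2 fold change was -0.855. The summed FPKM of the stroma and muscle markers was 546 to 690 in control, 614 to 806 in TAI and 571, 332 and 134 in TAI/IVIg mice, and its part in the antibody gene values of TAI/IVIg mice was not tested. The other immunoglobulin constants tested, Ighd, Iglc2, Iglc3 with the surrogate light chain relative Vpreb3, were not called (0 of 4).

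**Figure D5:**
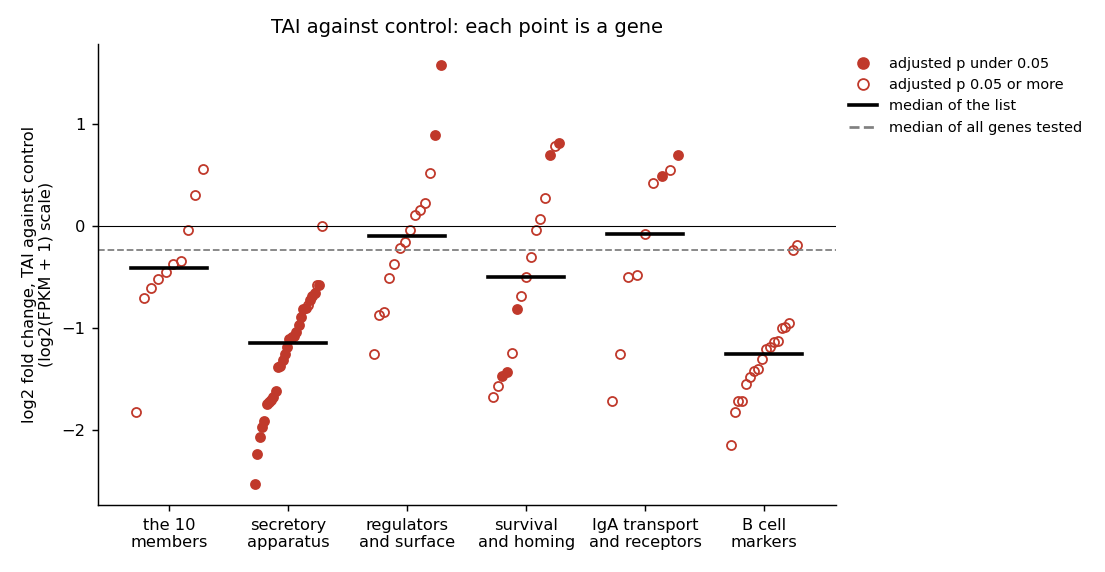
Log2 fold change in TAI against control mice for each tested gene of 6 lists; filled points passed limma's test at an adjusted p under 0.05, black bars are list medians and the dashed line is the median of all genes tested (-0.235). The 10 antibody genes have no filled point, and 27 of 30 secretory apparatus genes are filled and below 0.

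The genes whose log2(FPKM + 1) followed Jchain most closely over the 9 mice were Yes1, a Src family kinase (Pearson r = 0.916), B330016D10Rik (0.909), Gm13772 (0.884), Kdelr3, a retrieval receptor of the endoplasmic reticulum (0.882), and Sema4g (0.866). For the mean of the 10 standardized genes they were Tnrc6a (0.974), Zfp715 (0.959), Ddx3y (0.954), Hltf (0.953) and Aebp2 (0.952). These are the highest of 13056 correlations over 9 libraries and are given as a description. Without the 2 mice farthest from the median, r was 0.771 for Yes1 and 0.898 for Tnrc6a.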

How the data were processed

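RNA-seq of jejunum from 9 mice was deposited as a single table of 31685 genes. Per the file headers and the study's methods the deposited values are FPKM, normalized by the authors to gene length and library total; the submitters' processing notes name Trimmomatic, STAR and featureCounts with mm10/GRCm38, and DESeq2 for tests whose values were not used here. Of the gene identifiers 31146 matched a symbol. Each FPKM was a whole multiple of 1 read for 100% of values (within 0.01 reads), which gave the read totals, and the gene lengths so implied were within 0.053% of GENCODE M21 exon lengths for the 10 genes, so M21 coordinates (GRCm38) were used. Coding sequences came from the M21 transcripts and were aligned with Biopython 1.88.

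The 13056 genes that reached an FPKM of 1 in 3 or more mice entered limma 3.58.1 (R 4.3.3) on log2(FPKM + 1), a term for each group, 9 mice, trended variance, Benjamini-Hochberg adjustment over all genes tested and a threshold of 0.05; fold changes on this scale understate low genes. The fit was tested on simulated data. Because the values are FPKM, no count model was run; limma voom on the recovered reads was added instead. Intervals reflect the spread between mice; nothing says that mice of a group were housed or processed apart. The replicate numbers of control and TAI mice deviated together (correlations of 0.271, 0.241 and 0.308), those of TAI/IVIg and TAI mice did not in each pair (0.201, 0.041 and -0.067).

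The 10 genes, the lists of related genes and the rule for named genes were chosen with earlier results of these data known. The rule took the 10, in each list up to 3 in each direction with the smallest p, and the 5 most correlated genes. Other genes were named outside the rule, among them Ms4a1, Cd79a, Cd74, Cxcl13, Ighd, Xbp1 and Tnfrsf17. For the B cell markers the rule took Cd72, Fcrla and Cd79b, none of which was called in TAI against control. 1 B cell marker of the list is not reported here.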

Additional observations from a re-analysis of the deposited data

How the results depend on the processing

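None of the 10 genes was called in the fit reported, and the alternatives changed that in 4 places. Igkc was called lower under quantile normalization, so that 1 gene was called in TAI against control (log2 -0.86) and 1 in TAI/IVIg against control (-0.82). With the mouse number as a replicate block 1 gene, Iglc1, was called lower in TAI/IVIg against control (-0.83, adjusted p = 0.0301 in limma's test). Those numbers did not deviate together in each pair of that comparison, and the block changed no other call of the 10. Without the 4 mice with Ms4a1 above 1 FPKM, chosen after seeing the data, 1 gene, Ighm, was called lower in TAI/IVIg against control (-1.09, adjusted p = 0.0321). That fit leaves 1 control mouse, assumed to vary like the other groups. In the fits that left out 1 mouse the number of the 10 called was 0 to 0 in each comparison. Over the 3 comparisons and all alternatives, 565 differences of the 10 genes kept sign and side of the threshold, 4 passed it and 52 changed sign, none of the latter being called.

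In TAI/IVIg against TAI, leaving out 1 mouse at a time moved the log2 difference between -0.33 and 0.23 for Igha, -2.22 and 1.02 for Ighm, -2.01 and 0.11 for Ighg2b, -1.32 and 1.06 for Ighg3, -0.16 and 0.16 for Igkc, -0.08 and 0.34 for Jchain and -0.29 and 0.09 for Mzb1. In TAI against control it moved between -0.38 and 1.00 for Ighg1, -1.85 and 0.32 for Ighg2b, -0.12 and 1.05 for Ighg2c, -1.73 and 0.36 for Ighg3 and -0.45 and 0.40 for Iglc1. In TAI/IVIg against control it moved between -1.84 and 0.21 for Ighg3. With library medians set equal the sign turned for Igha (0.16), Igkc (0.12), Jchain (0.18) and Ighg2c (0.25) in TAI/IVIg against control, for Iglc1 (0.25) in TAI against control and for Ighg3 (0.053) and Mzb1 (0.096) in TAI/IVIg against TAI. Median-ratio totals with limma voom gave 0.15 for Igha, 0.11 for Igkc, 0.17 for Jchain and 0.17 for Ighg2c in TAI/IVIg against control and 0.25 for Iglc1 in TAI against control. Quantile normalization gave 0.25 for Ighg2c in TAI/IVIg against control, 0.15 for Iglc1 in TAI against control and 0.073 for Ighg3 and 0.18 for Mzb1 in TAI/IVIg against TAI. Igkc in TAI/IVIg against TAI, at 0 to 2 decimals, was -0.00027 with immunoglobulin genes left out of the totals and -0.00034 with limma voom on library totals. Without the 4 mice, Ighg2b (0.70), Ighg3 (0.0001) and Mzb1 (0.006) changed sign in TAI against control, Igha (-0.23) and Igkc (-0.18) in TAI/IVIg against TAI and Ighg1 (0.20) in TAI/IVIg against control. The cause was not tested.

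The planned count models (edgeR with and without its scaling) were not run on FPKM. The count of lower secretory apparatus genes stayed between 19 and 28 of those tested under every alternative in both comparisons with control. Prdm1, Ell2, Ccl28 and Tnfsf13b lost their TAI calls only without the 4 mice, and Bcl6 there and without TAI mouse 1 or TAI mouse 2. Mzb1 with 9 reads and Ighg3 with 2 reads in the lowest library are limited by depth.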
